A study of Apis mellifera with 15 samples.

Results

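Camkii, For and Ac3 are 3 of the 12112 genes in the deposited count table, chosen by name as 2 kinases and 1 cyclase of the pathways used in learning and foraging, and their 50 transcripts are among 28276 with deposited values. They were followed in whole brains of adult worker honey bees (Apis mellifera) that were foragers, taken from an unpolluted site and fed sucrose solution in laboratory bottles for 72 h. The solution held solvent alone (control) or thiacloprid at a dose of 25 or 250 ng/bee. Thiacloprid is a neonicotinoid, an insecticide class that binds the nicotinic receptors for acetylcholine. Each group had 5 libraries of messenger RNA, and each library came from a separate pool of 5 brains, so single bees cannot be seen. The sources used here give no age for the bees, and no other treatment, strain or allele is named for any group. In whole-brain RNA, fewer cells of a type and less RNA per cell cannot be told apart.

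Camkii encodes calcium/calmodulin-dependent protein kinase II, which calcium entering an active neuron switches on and which can stay active by phosphorylating itself, a property tied to memory. For encodes the cGMP-dependent protein kinase named after the foraging gene of Drosophila, where natural variants set how far larvae roam while feeding, and in honey bees its brain transcript is known to be higher in foragers than in nurses. Ac3 encodes an adenylyl cyclase, a membrane enzyme that makes cyclic AMP, the messenger that activates protein kinase A during olfactory learning.

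Camkii lies on chromosome 4 (minus strand, 5243020 to 5370926), with 43 transcripts of 14 to 19 exons and 2300 to 12007 bases. For lies on chromosome 13 (minus strand, 10107902 to 10187775), with 4 transcripts of 2408 to 4116 bases. Ac3 lies on chromosome 11 (plus strand, 12956997 to 12973602), with 3 transcripts of 9 exons and 5324 to 6646 bases. These coordinates are the deposited ones and equal those of assembly Amel_HAv3.1 for all 3 genes. The loci LOC102654974, LOC102655144 and LOC107964268 overlap Camkii and LOC102655843 overlaps For, and the highest of their mean counts was 8.73 per library.

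Depth was 6834898 to 11500655 counts in 14 libraries and 29208991 in replicate 1 at 250 ng/bee, whose label alone starts with 20191023 and not 20190809. The labels do not explain this number, and results are given without this library where it moves them. The brain label was checked with 4 neuron markers (Syt1, brp, Para and Syx1A), whose summed level in CPM (counts scaled to the library's total by TMM) was 1004 to 1287 in control libraries. It was 901 to 1162 CPM after the lower dose and 814 to 973 CPM after the higher dose. The control and 250 ng/bee ranges of this sum did not overlap. How often other genes or sums separate in this way was not counted. Of the 4 markers, 1 had an unadjusted p under 0.05 at 250 ng/bee in edgeR and 0 were called. Over all tested genes, 1144 of 9560 had such a p. The glia marker Eaat-2 was at 180 to 391 CPM across all libraries. Markers of tissue that a dissected brain can carry along were present too. The gland list of 12 genes (Mrjp1 to Mrjp9, AGLU2, Hbg2 and Hbg3) summed to 35842 to 284480 CPM. Its means ran from 1.44 (Hbg2) to 43189 FPKM (Mrjp1), where FPKM is fragments scaled to transcript length and library total. The 7 muscle genes summed to 94.1 to 1070 CPM and the 4 opsins of the retina to 2223 to 9255 CPM. The 6 fat body genes, 1 of them at 0 throughout, summed to 2967 to 4887 CPM. This sum is mostly Tsf1, with a mean of 1454 FPKM, beside 4.87 to 24.2 FPKM for Vg, Hex70a, HEX70b and Hex110. Gland and muscle ranges overlapped between the groups, but of 6 tested muscle genes 5 had higher fitted values at 25 ng/bee (median log2 fold change 0.12) and 6 at 250 ng/bee (median 0.85), with 0 called.

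Per length, the 3 genes stood far apart. Camkii had a mean gene level of 62.1 FPKM (fragments scaled to transcript length and library total, summed over its transcripts), above 87.5% of 9560 tested genes, with 41.3 to 79.4 FPKM over the 15 libraries. Ac3 had 16.9 FPKM (9.05 to 27.4) and For 13.2 FPKM (8.42 to 22.4), both near the median of 15.1 FPKM over tested genes, and their ranges overlapped. Camkii lay above both in every library. The spread between pools ran in another order: the biological coefficient of variation fitted by edgeR was 0.150 for Camkii, 0.220 for For and 0.377 for Ac3, against a median of 0.176. The value of Ac3 was above that of 90.2% of tested genes.

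The level of Camkii was 752, 822, 848, 734 and 848 CPM in control replicates 1 to 5. After 25 ng/bee, Camkii was at 794, 929, 728, 591 and 778 CPM. After 250 ng/bee, Camkii was at 645, 792, 692, 664 and 829 CPM. The groups overlapped: both the highest and the lowest library were pools fed 25 ng/bee, and at each dose 4 of 5 libraries lay below the control mean of 801 ± 54.4 CPM (SD, n = 5). The group means at the doses were 764 ± 122 and 724 ± 81.4 CPM. The log2 fold change was -0.07 ± 0.12 (SE) at 25 ng/bee and -0.14 ± 0.12 at 250 ng/bee, with adjusted p = 0.9985 and 0.669 in edgeR's quasi-likelihood test over all tested genes. The 95% interval of the fold at the higher dose was 0.754 to 1.09. This value moved to -0.04 with a correction for transcript length and to -0.08 without replicate 1 at 250 ng/bee. The neuron marker sum was also lower at 250 ng/bee, and its part in the Camkii value was not tested.

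The level of For was 59.9, 40.4, 43.6, 51.4 and 47.9 CPM in control replicates 1 to 5. The pools fed 25 ng/bee had 44.5, 33.6, 34.4, 56.6 and 28.5 CPM. Those fed 250 ng/bee had 56.5, 30.1, 38.8, 46.9 and 31.4 CPM. At each dose 3 of 5 libraries lay below every control library, while replicate 4 at 25 ng/bee and replicate 1 at 250 ng/bee lay near the top of the control range, so the groups overlapped. Mean levels were 48.7 ± 7.54, 39.5 ± 11.2 and 40.7 ± 11.1 CPM (SD, n = 5) in the control and at 25 and 250 ng/bee. The log2 fold change of For was -0.30 ± 0.20 at 25 ng/bee (adjusted p = 0.9985) and -0.25 ± 0.20 at 250 ng/bee (adjusted p = 0.635), neither past the threshold in edgeR. The 95% interval of the fold ran from 0.608 to 1.08 at 25 ng/bee and from 0.630 to 1.12 at 250 ng/bee. The doses shared the same control libraries and are not separate evidence. The value for the higher dose became -0.38 (adjusted p = 0.261) without replicate 1, -0.48 (adjusted p = 0.0832) in limma-voom with sample weights and -0.16 with the length correction.

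The level of Ac3 was 62.4, 167, 115, 82.1 and 171 CPM in control replicates 1 to 5. With 25 ng/bee it was 132, 76.8, 56.2, 163 and 76.6 CPM. With 250 ng/bee it was 152, 131, 54.8, 65.3 and 120 CPM. Every group held at least 2 libraries at 82.1 CPM or less and at least 2 at 115 CPM or more, and the groups overlapped. Means were 120 ± 49.0, 101 ± 44.7 and 105 ± 42.3 CPM (SD, n = 5). The log2 fold change of Ac3 was -0.24 ± 0.34 for the lower dose and -0.19 ± 0.34 for the higher, with adjusted p = 0.9985 and 0.858 in edgeR. Its fold intervals, 0.510 to 1.40 and 0.529 to 1.45, were the widest of the 3 genes. Over the alternatives run, leaving out each library included, the log2 fold change of Ac3 ranged from -0.49 (without replicate 4 at 25 ng/bee) to -0.08 (without control replicate 5) at the lower dose. At the higher dose it ranged from -0.35 (without control replicate 1) to -0.02 (without control replicate 2), and it was -0.04 with the length correction and -0.08 in limma-voom.

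**Figure D1:**
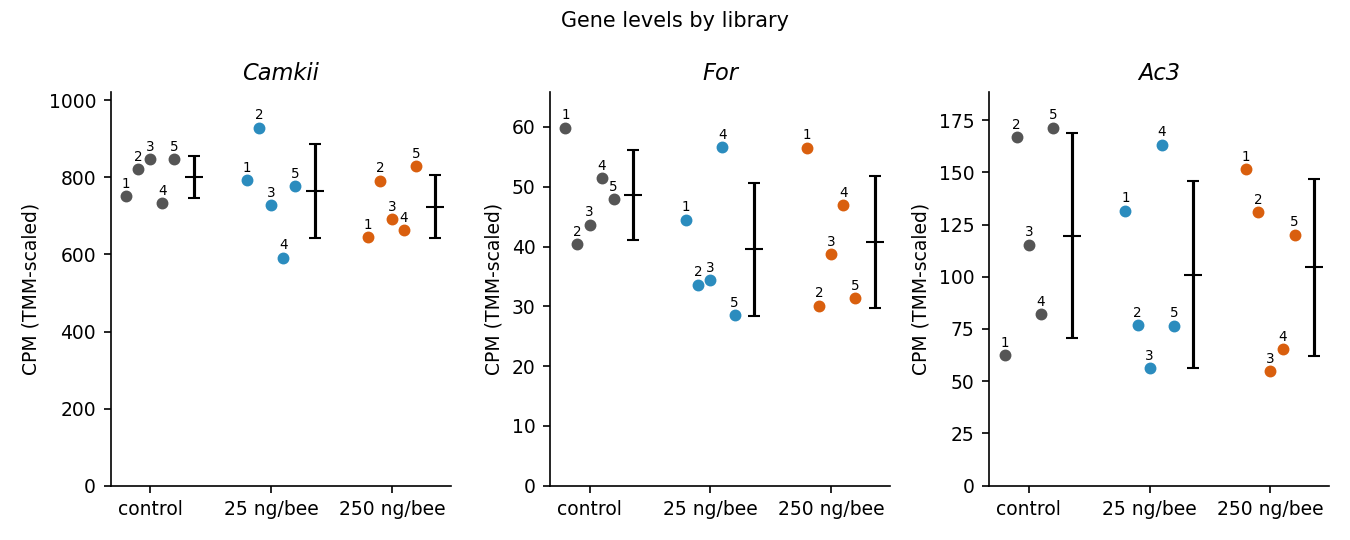
Level of Camkii, For and Ac3 in CPM (y axis, TMM-scaled, from 0) in the control and at 25 and 250 ng/bee; each point is 1 library (5 per group) and each bar the group mean with its SD. The groups overlap for every gene, and Ac3 spans 54.8 to 171 CPM.

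Between the doses the log2 fold changes (250 against 25 ng/bee) were -0.08 ± 0.12 for Camkii, 0.05 ± 0.20 for For and 0.05 ± 0.34 for Ac3, none past the threshold in edgeR, and each turned sign under at least 1 alternative. None of the 3 genes was called in any comparison, beside 0% of the 9560 tested genes in edgeR for each dose against the control, for the doses against each other and for any difference among the groups. An unadjusted p under 0.05 was found by edgeR for 235 genes at 25 ng/bee, 1144 at 250 ng/bee, 477 between the doses and 645 for any difference. For 250 ng/bee against the control DESeq2 called 54 genes and limma-voom 390, and edgeR without replicate 1 called 248 of 9617 (2.58%). Camkii, For and Ac3 were among none of these calls.

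The transcripts of Ac3 split the pools within every group. Only 2 of the 3 were above 0 in any library, the longer XM_016914661.2 (6646 bases) and NM_001077808.1 (5324 bases), while XM_006566247.3 was listed at 0 in all 15. XM_016914661.2 starts 1153 bases after NM_001077808.1 and ends 1398 bases beyond it. In the control its level was 0, 18.01, 8.68, 0 and 18.3 FPKM in replicates 1 to 5. In pools fed 25 ng/bee it was 12.4, 0, 0, 16.7 and 0 FPKM, and in those fed 250 ng/bee 11.8, 12.9, 0, 0 and 12.3 FPKM. It was thus listed at 0 in 2, 3 and 2 libraries of the groups and at 8.68 FPKM or more in the other 8, with nothing between.

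The gene total, which includes the level of XM_016914661.2 and so is no separate measure, lay along the same split. In the 7 libraries that list XM_016914661.2 at 0, Ac3 had 54.8 to 82.1 CPM, and in the other 8 it had 115 to 171 CPM, with no overlap. NM_001077808.1 had 9.05 to 14.9 FPKM in the 7 libraries and 2.61 to 9.07 FPKM in the 8. Depth was 8123655 to 11500655 counts in the 7 and 6834898 to 29208991 in the 8. A listing of 0 is common for transcripts in these tables: of 8908 transcripts with a mean share of at least 10% in genes with several transcripts, 3888 (43.6%) were at 0 in at least 1 library and 1628 (18.3%) in at least 5. Gene totals without overlap along such a split were counted too. Of 1415 transcripts at 0 in 5 to 10 libraries, 7 (0.495%) had every gene CPM higher where the transcript was above 0. The reverse was found for 0. XM_016914661.2 is itself among the 7, and the 1415 were not matched to it for share or for spread between pools. This count is therefore no test of the split. The split was seen in the data and then described, and whether it comes from the pools of bees or from the estimate of transcript levels was not tested.

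**Figure D2:**
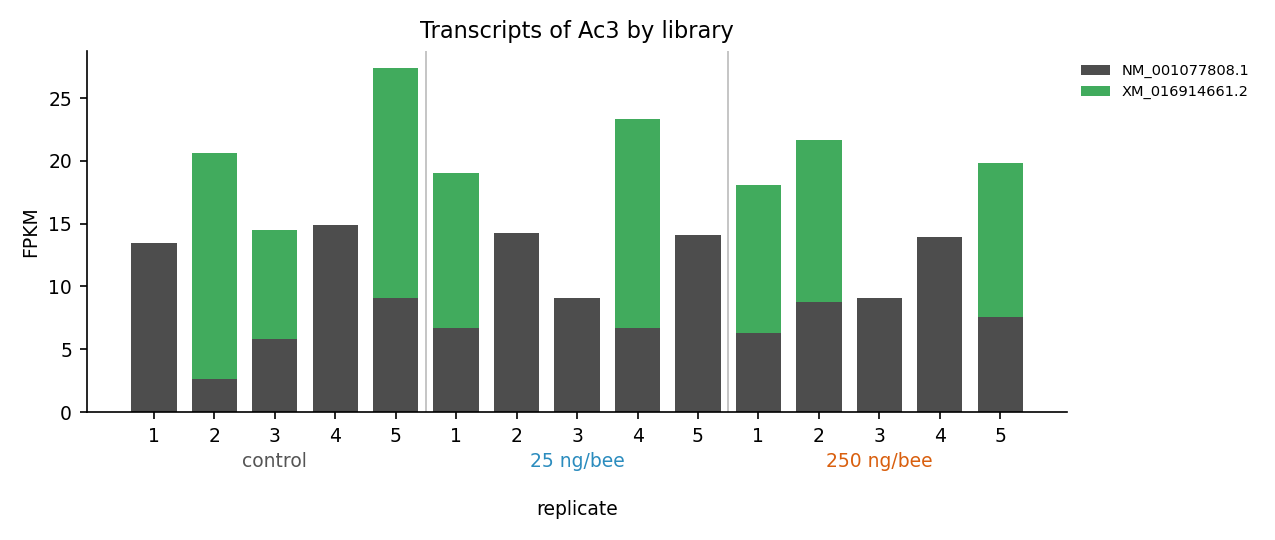
FPKM of NM_001077808.1 (dark) and XM_016914661.2 (green), stacked, in each library, with replicates 1 to 5 of the control, 25 ng/bee and 250 ng/bee along the x axis. XM_016914661.2 is missing in 7 libraries, spread over all 3 groups, and above 8 FPKM in the other 8.

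Between groups neither Ac3 transcript passed in limma on log2(FPKM + 0.5), where 0% of 14930 transcripts were called in each comparison. The smallest adjusted p of the pair was 0.997. The share of NM_001077808.1 in the gene's FPKM was 15.6 points higher at 25 ng/bee and 5.53 points higher at 250 ng/bee than in the control (adjusted p = 0.987 and 1.00 in limma on the arcsine square root of the share, 10506 transcripts, 0% called).

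The transcripts of For begin at separate places. XM_026444521.1, with a mean share of 79.6%, and NM_001011581.1, with 10.3%, start at the far end of the locus, whereas XM_026444524.1 and XM_026444523.1 start 39884 and 50114 bases further inside. The share of the internal starts was 2.60, 1.38, 1.85, 2.13 and 2.23% in control replicates 1 to 5. With the lower dose it was 5.00, 82.8, 15.4, 2.36 and 19.2%, and with the higher dose 2.20, 6.91, 0.988, 4.10 and 2.89%. Replicates 1, 2, 3 and 5 at 25 ng/bee lay above every control library, and replicate 4 lay within the control range. Replicates 2, 4 and 5 at 250 ng/bee also lay above every control library.

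Replicate 2 at 25 ng/bee stood apart. There XM_026444523.1 was at 6.98 FPKM, beside 0.0841 to 0.336 FPKM in the control, and XM_026444521.1 was at 1.45 FPKM, beside 8.53 to 21.8 FPKM. The share of XM_026444523.1 was 22.8 points higher at 25 ng/bee than in the control (adjusted p = 0.963 in limma), and so was not called. With a mean share under 10%, it was chosen for description after its values were seen. Without replicate 2 the mean internal share at 25 ng/bee was 10.5 ± 8.06% (SD, n = 4), beside 2.04 ± 0.457% (SD, n = 5) in the control, and the transcript then fell below the share needed for testing.

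NM_001011581.1, the other distal transcript, was listed at 0.0140, 2.42, 0, 0 and 1.59 FPKM in control replicates 1 to 5. The lower dose gave 0.0505, 0, 0, 1.96 and 0.0623 FPKM. The higher dose gave 3.24, 4.56, 2.08, 4.96 and 0 FPKM. Replicates 1, 2 and 4 at 250 ng/bee lay above all control libraries and all libraries at 25 ng/bee, replicate 3 lay within the control range and replicate 5 was at 0. Its share had the smallest unadjusted p of the For transcripts and was 19.5 points higher at 250 than at 25 ng/bee (adjusted p = 0.973 in limma). Against the control it was 15.6 points higher (adjusted p = 0.986). The share of XM_026444521.1 differed from the control by -19.1 points at 25 ng/bee and -17.003 points at 250 ng/bee, with adjusted p = 0.965 and 0.986. The value at 25 ng/bee includes replicate 2, where this share was 17.2%. Leaving out 1 library at a time gave -24.6 to -5.22 points at 25 ng/bee and -22.6 to -11.0 points at 250 ng/bee.

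**Figure D3:**
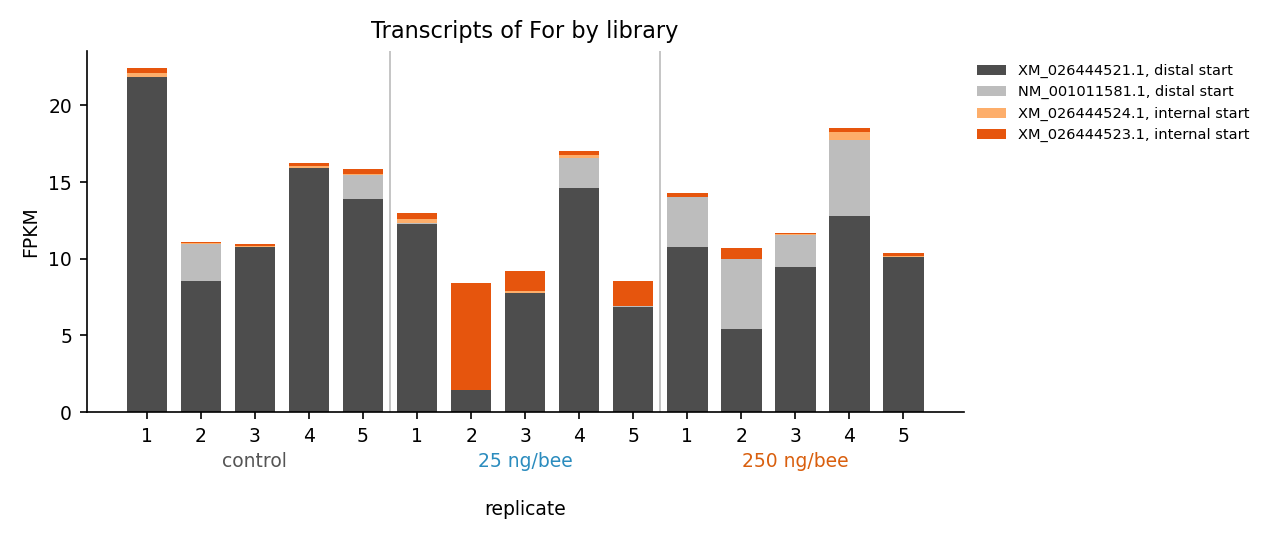
FPKM of the 4 transcripts of For, stacked, in each library, with replicates 1 to 5 of each group along the x axis; grey shades start at the far end of the locus and orange shades inside it. Replicate 2 at 25 ng/bee is the library in which an internal start holds most of the level (82.8%).

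Camkii was spread over many transcripts. Of 43, 3 were listed at 0 in all libraries and 3 were above 0 in all, and 12 to 32 were above 0 in a library. The 23 with a mean share under 1% summed to 5.00% of the gene. The highest shares were those of XM_006560537.3 (14 exons, 12.6%) and XM_006560532.3 (15 exons, 10.3%), and XM_006560537.3 led in 14 libraries. These transcripts span the same start and end, so how reads are shared among them rests on the authors' estimate.

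The share of XM_006560537.3 was 11.3, 11.2, 6.19, 8.02 and 9.35% in control replicates 1 to 5 and 7.63 to 13.6% at 25 ng/bee. With 250 ng/bee it was 18.5, 10.3, 9.53, 26.8 and 28.2%. Replicates 1, 4 and 5 at 250 ng/bee lay above every library of the other groups, and replicates 2 and 3 lay inside the control range. The difference from the control was 9.46 points at 250 ng/bee (adjusted p = 0.986) and 0.59 points at 25 ng/bee (adjusted p = 1.00) in limma. XM_006560532.3 was 8.12 points higher at 250 ng/bee (adjusted p = 0.986 in limma). Both were named for a mean share of at least 10% over all libraries. In the control and at 25 and 250 ng/bee, XM_006560537.3 had mean shares of 9.21, 9.80 and 18.7%. Those of XM_006560532.3 were 7.65, 7.48 and 15.8%. Only the 250 ng/bee group lay above 10%, so naming these transcripts favoured a higher share at that dose.

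The transcript of Camkii with the smallest unadjusted p was XM_006560540.3, also of 14 exons. It was at 6.16, 3.78, 2.77, 4.22 and 0 FPKM in control replicates 1 to 5, at 4.94, 0, 1.63, 0 and 0 FPKM at 25 ng/bee, and listed at 0 in all 5 libraries at 250 ng/bee. Limma gave adjusted p = 0.997 for 250 ng/bee against the control, so it was not called.

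By exon number, transcripts with 17 or more exons held 0.632, 29.9, 15.3, 21.3 and 28.8% of Camkii in control replicates 1 to 5. Among pools fed 25 ng/bee they held 16.4, 0.202, 21.0, 27.6 and 21.0%, and among those fed 250 ng/bee 18.6, 5.15, 22.6, 0.271 and 0.725%. Each group had at least 1 library under 1% and others above 18%, so the groups overlapped. The class of 15 exons held the largest mean share, at 40.2 ± 7.64%, 45.9 ± 11.1% and 52.7 ± 16.03% (SD, n = 5) in the control and at 25 and 250 ng/bee, and no test was made of the classes.

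**Figure D4:**
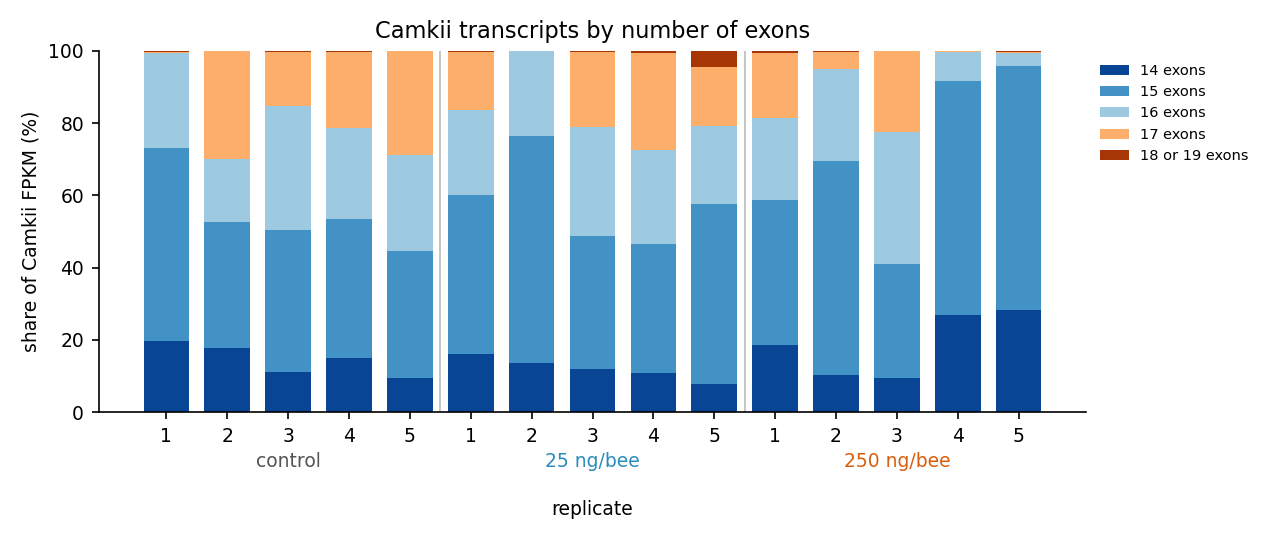
Share of Camkii FPKM in percent (y axis, 0 to 100) held by transcripts of 14, 15, 16, 17 and 18 or 19 exons in each library, with replicates 1 to 5 of each group along the x axis. The classes of 17 or more exons are under 1% in 1 control library, 1 library at 25 ng/bee and 2 at 250 ng/bee.

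Whether the 3 genes rise and fall together between pools was asked over all libraries, and no pair passed. Over 15 libraries, log2 CPM of Camkii and For had Pearson r = -0.51 (permutation p = 0.0511, adjusted over 3 pairs 0.153) and Spearman rho = -0.43 (permutation p = 0.112, adjusted 0.335), two-sided. Without replicate 1 at 250 ng/bee and replicate 4 at 25 ng/bee, the libraries farthest from the Camkii median, r was -0.26, so the pooled relation rests on them. With each group's mean subtracted, an alternative to the planned value, r was -0.76 (permutation within groups, p = 0.00611, adjusted 0.0183) and rho -0.73 (p = 0.00931, adjusted 0.0279). The farthest libraries on this scale were another pair, replicates 2 and 4 at 25 ng/bee, and r was -0.72 without them. How often other pairs of genes reach an r of this size was not counted. With no group mean subtracted, the serotonin receptor gene 5-HT1 ranked only 26 among the genes most like Camkii, at r = 0.86. The r of -0.76 moved to -0.65 (adjusted p = 0.120), short of the threshold, without replicate 4 at 25 ng/bee alone. This library had the lowest Camkii and a high For level. That rho missed the threshold in 7 of 15 cases when each library was left out in turn, with rho from -0.83 to -0.67 and a largest adjusted p of 0.103 (without replicate 1 at 250 ng/bee). Without replicate 1 at 250 ng/bee, the library set apart by its label, and with no group mean subtracted, r was -0.44 (permutation p = 0.115). With the length correction and group means subtracted, r was -0.74 (adjusted p = 0.0205), and rho was -0.63 and did not pass (adjusted p = 0.0858). This r was -0.48 without replicate 1 at 250 ng/bee and replicate 4 at 25 ng/bee, the farthest libraries there. Camkii with Ac3 (r = 0.08, permutation p = 0.783, adjusted 0.783; rho = 0.23, p = 0.405) and For with Ac3 (r = 0.19, permutation p = 0.488, adjusted 0.732; rho = 0.23, p = 0.403) did not pass. Without their 2 farthest libraries r was 0.60 and 0.23.

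**Figure D5:**
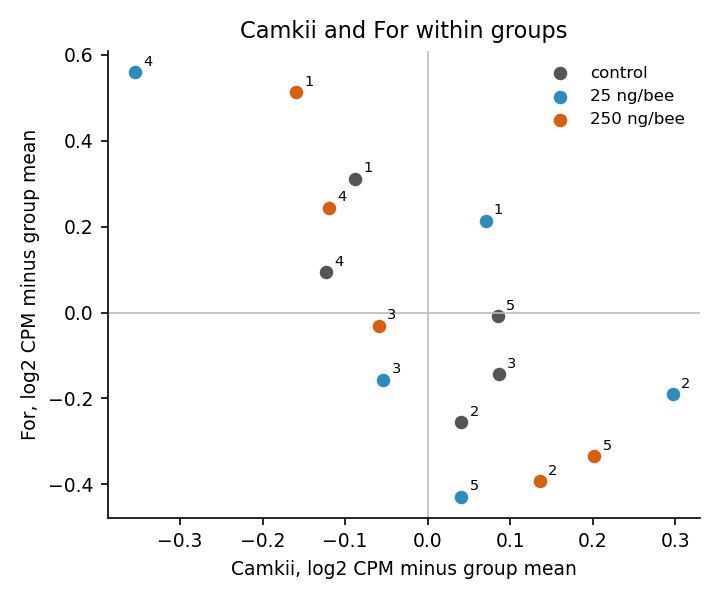
Log2 CPM of Camkii (x axis) and For (y axis) in each of 15 libraries, each minus the mean of its own group; colours mark the control, 25 ng/bee and 250 ng/bee. Libraries with higher Camkii tend to have lower For (r = -0.76, not the planned value), and replicate 4 at 25 ng/bee lies at the far upper left. How often other pairs of genes reach such an r was not counted. The planned r, with no group mean subtracted, was -0.51 and did not pass (permutation test, adjusted p = 0.153). Without replicate 4 at 25 ng/bee the r shown was -0.65 and did not pass (adjusted p = 0.120).

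The genes most like each of the 3 in log2 CPM over the 15 libraries were listed as a description. For Camkii they were LOC410498 (r = 0.95), LOC409782 (0.94) and LOC410353 (0.93), and among genes with a symbol the serotonin receptor 5-HT1 (0.86), the voltage-gated calcium channel gene Cac (0.85) and the sodium channel gene Para (0.84). For For they were LOC410288 (0.84), LOC412209 (0.83) and LOC551793 (0.83), and with a symbol the cytochrome P450 Cyp6as5 (0.78), the globin Glob1 (0.76) and the GABA transporter gene Gat-a (0.76). For Ac3 they were LOC724919 (0.76), LOC107965668 (0.74) and LOC726720 (0.73), and with a symbol Coq7 of ubiquinone synthesis (0.66), the odorant-binding protein gene Obp3 (0.66) and the RNA-editing enzyme gene Adar (0.61). All such values share the same libraries, depth and scaling, and the mean level of LOC107965668 was 0.931 CPM. The genes listed for Camkii (11555 bases, weighted over its transcripts) had 4029 to 14810 bases. Those for For (3067 bases) had 973 to 3845, and those for Ac3 (6003 bases) had 606 to 3719. The part of transcript length in these values was not tested.

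Around For, the cGMP pathway list held NOS, the nitric oxide synthase, and Gycbeta1 and sGC-alpha1, subunits of the soluble guanylyl cyclase that nitric oxide activates. All 4 had lower fitted values at both doses and 0 of 4 were called. Of all tested genes 4991 of 9560 were lower at 25 ng/bee and 5315 at 250 ng/bee. The median of the list was -0.22 at 25 ng/bee and -0.27 at 250 ng/bee, beside -0.01 and -0.03 over all tested genes. NOS was at 68.7, 92.6, 91.5, 75.4 and 86.3 CPM in control replicates 1 to 5 and at 68.5, 67.0, 64.8, 72.6 and 66.8 CPM at 250 ng/bee, where 4 of 5 libraries lay below every control library. Its log2 fold change at 250 ng/bee was -0.29 ± 0.11 (adjusted p = 0.362 in edgeR) and -0.16 with the length correction. sGC-alpha1 was at 42.4, 53.9, 52.6, 44.9 and 57.5 CPM in the control and at 43.0, 45.0, 31.8, 43.6 and 34.4 CPM at 250 ng/bee, with -0.34 ± 0.13 (adjusted p = 0.356). Both had an unadjusted p under 0.05 at 250 ng/bee, as had 1144 of 9560 tested genes, and at 25 ng/bee none of the 4 had. The smallest p of the list at 25 ng/bee was that of NOS (-0.22 ± 0.11, adjusted p = 0.9985). A further subunit gene, sGCbeta-3, was added to the list after the files were seen and had -0.10 ± 0.22 at 25 ng/bee and -0.26 ± 0.22 at 250 ng/bee, neither called.

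Around Camkii, the calcium list held Pkc, a protein kinase C, and Ip3k, which phosphorylates inositol trisphosphate. All 3, Camkii itself included, had lower fitted values at both doses, and 0 of 3 were called. Of all tested genes, 4991 of 9560 were lower at 25 ng/bee and 5315 at 250 ng/bee, and the doses shared their control libraries. Pkc had the smallest unadjusted p at 250 ng/bee (-0.27 ± 0.15, adjusted p = 0.488 in edgeR, and -0.13 with the length correction). Around Ac3, the cyclic AMP list held 1 other gene, LOC726262, with the synonym ac8 in the reference table. At a mean of 74.98 FPKM it lay above Ac3 in every library, and its log2 fold changes were -0.04 ± 0.20 and -0.02 ± 0.20, the latter 0.12 with the length correction.

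Of 12 genes tied to foraging and behavioural state, 10 were tested (Kakusei and Ks-1 were too low), and 7 had lower and 3 higher fitted values at each dose, with 0 called. The smallest unadjusted p were those of For at 25 ng/bee and of the clock gene Cry2 at 250 ng/bee (-0.33 ± 0.17, adjusted p = 0.458 in edgeR), and the median was -0.14 and -0.19. Of 22 receptor genes for acetylcholine, dopamine, octopamine, tyramine, serotonin and glutamate, 18 were lower at 25 ng/bee and 17 at 250 ng/bee, with 0 called and a median of -0.10 and -0.27. An unadjusted p under 0.05 in edgeR was found for 0 of the 22 at 25 ng/bee and 5 at 250 ng/bee. Over all 9560 tested genes these numbers were 235 and 1144. Of the 9560, 4991 were lower at 25 ng/bee and 5315 at 250 ng/bee, with medians of -0.01 and -0.03. Beside these lists, the 4 neuron markers also had lower fitted values at 250 ng/bee (median -0.24, 0 called) and the 6 tested muscle markers higher ones (median 0.85, 0 called), and their part in the values was not tested.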

How the data were processed

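Brain messenger RNA of 15 pools was sequenced with a strand-specific kit, per the labels' protocols. StringTie 2.0.2, DESeq2 1.22.2, HISAT2 2.1.0, Trimmomatic 0.39 and SAMtools 1.7 appear in the submitters' processing notes, without their roles. Which genome build was used, and whether counting used strand, is not given in those notes or the labels. The authors deposited a table of estimated counts, which equal the summed coverage times length over a read length of 75, rounded, for 100% of genes in every library. The deposited transcript tables give FPKM and, per the file headers, coverage, a signal used for that check and for shares. Of 12112 genes, 12069 (99.6%) had the same start and end as in Amel_HAv3.1. No library repeated another.

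Groups came from sample titles. Genes were tested with edgeR 4.0.16 in R 4.3.3 (quasi-likelihood F test, TMM, filterByExpr, all 15 libraries in 1 fit), two-sided, with Benjamini-Hochberg adjustment over 9560 genes and a threshold of 0.05. Transcripts with FPKM of at least 1 in at least 5 libraries were tested with limma 3.58.1 on log2(FPKM + 0.5), a scale that understates changes of low transcripts. Shares were tested with limma for transcripts with a mean share of 5 to 95% in genes with FPKM of at least 1 in every library. Correlations used 100000 permutations. For values with the group mean subtracted, permutation within groups replaced free permutation after the first result was seen, which raised p.

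Named were the 3 genes, transcripts with a mean share of at least 10% or the smallest p per gene, the genes of the lists described and the 3 most similar genes of each kind. The members and lists were chosen with earlier results of these data known. Alternatives were DESeq2 1.42.0 and its size factors, limma-voom with sample weights, no low-count filter, a length correction (a lowess curve of log2 CPM on transcript length per library), pseudocounts, share settings, a replicate block and leaving out each library.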

Additional observations from a re-analysis of the deposited data

Results flagged for a closer look

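In groups of 5, 6 values of named transcripts lay farther from their group than Dixon's test allows, of 57 groups examined. The test's rate of about 1 in 20 holds for independent, normally spread values. Many values here are at or near 0, and levels and shares of the same transcripts are linked. The number flagged therefore cannot be set against that rate. All 6 were at 25 ng/bee and some describe the same event. In replicate 2, XM_026444523.1 of For was at 6.98 FPKM and a share of 82.8%, XM_026444521.1 of For was at a share of 17.2%, and XM_006560537.3 of Camkii was at 10.8 FPKM, beside 4.84 to 5.01 FPKM in the other 4. In replicate 4, NM_001011581.1 of For was at 1.96 FPKM and a share of 11.5%, with the other 4 libraries at or below 0.0623 FPKM.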

How the results depend on the processing

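Of 1617 values under alternatives, 1522 stayed the same. For fold changes, differences and correlations this meant the same direction and side of the threshold. The 1617 also include counts of called genes, transcripts and shares, which have no direction. Of the 3 genes, For had the lowest CPM, and Ac3 had the largest standard errors (0.34) and spread between pools. Gene calls at 250 ng/bee were 54 in DESeq2 and 390 in limma-voom, and 17 in DESeq2 for any difference. Between the doses the log2 fold change of Camkii turned to 0.018 with the length correction and that of For to -0.10 in limma-voom. LOC726262 at 250 ng/bee turned to 0.0019 with DESeq2's size factors and in DESeq2, and to 0.12 with the length correction. With group means subtracted, an alternative to the planned correlation, r of Camkii and For was -0.76. With the length correction too, chosen after seeing the data, it was -0.74, and r of Camkii and Ac3 was -0.17. The cause was not tested.

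Leaving out 1 library at a time gave 0 to 248 gene calls at 250 ng/bee, the 248 without replicate 1 of that dose. Transcript calls were 0 to 1 in each of the 3 comparisons, and share calls were 0 to 2 at 25 ng/bee, 0 to 1 at 250 ng/bee and 0 to 2 between the doses. None of the tested transcripts of Camkii, For and Ac3 named here was among them. The log2 fold change of Camkii at 25 ng/bee ranged from -0.147 to 0.012. Between the doses the range was -0.13 to 0.0029 for Camkii, -0.0759 to 0.244 for For and -0.0982 to 0.325 for Ac3. Pathway genes at 25 ng/bee ranged from -0.183 to 0.118 for LOC726262, -0.152 to 0.034 for Pkc, -0.218 to 0.037 for sGCbeta-3 and -0.0902 to 0.133 for Cry2, and LOC726262 at 250 ng/bee from -0.0925 to 0.0984. Transcript log2 differences at 25 ng/bee ranged from -0.258 to 0.025 for XM_006560532.3, -0.208 to 0.132 for XM_006560537.3 and -0.0755 to 0.501 for NM_001077808.1. At 250 ng/bee they ranged from -0.194 to 0.383 for NM_001077808.1 and -0.853 to 0.581 for XM_016914661.2, and between the doses from -0.277 to 0.017 for NM_001077808.1 and -0.0809 to 0.659 for XM_026444521.1. Share differences in points at 25 ng/bee ranged from -0.842 to 0.168 for XM_006560532.3, -0.368 to 1.13 for XM_006560537.3 and -6.10 to 0.0039 for NM_001011581.1. At 250 ng/bee they ranged from -5.60 to 16.2 for NM_001077808.1 and -16.2 to 5.60 for XM_016914661.2, and between the doses from -11.8 to 8.11 for XM_026444521.1. With group means subtracted, chosen for this check after seeing the data, r ranged from -0.811 to -0.645 for Camkii and For, -0.0452 to 0.427 for Camkii and Ac3 and -0.117 to 0.288 for For and Ac3.

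Replicate numbers did not pair the libraries: same-numbered deviations correlated at -0.0478 to 0.207, over 0.1 in 3 of 15 pairs, and 4 libraries correlated best with their own number. With the replicate block edgeR called 0 genes, and For was at -0.28 at 250 ng/bee, Camkii at -0.15 and Ac3 at -0.26.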
